A study of Mus musculus with 4 samples.

Results

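Glycolysis breaks glucose down to pyruvate, and the hypoxia-inducible factors (HIFs) are the transcription factors that raise many of its genes when oxygen is short. A list of 36 genes of these 2 systems was examined in mouse blood stem cells sorted by their level of the transcription factor N-myc. The genes were listed by name with no threshold on their values, though with earlier results of these data known. Of the 36, 34 lay on probe sets that name 1 gene, out of 18193 genes measured in all. Gpi1 and Eno1 were not analysed here. Each gene is represented by its brightest probe set (by the mean of the 4 arrays), and the mean over its probe sets is given beside it where the sign or the size differs.

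The study collected haematopoietic stem cells (HSCs) from bone marrow and sorted them as Lin-Sca+Kit+CD48-CD150+ cells, straight into Trizol. All animals were transgenic for an N-myc/mCherry fusion gene, so both groups carry the fusion, and neither was treated or cultured. The N-myc high and N-myc low groups were parted by mCherry fluorescence, and the promoter of the transgene is not named in the labels. Each group has 2 arrays, labelled mouse 1 and mouse 2, and neither strain nor age is stated in the labels. Each array was hybridised with RNA amplified from 5 ng, and its values are log2 intensities, so a difference of 1 is a doubling.

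In the textbook pathway, glucose enters through GLUT transporters, hexokinase traps it as glucose 6-phosphate, phosphofructokinase commits it to breakdown, and pyruvate kinase yields pyruvate. Lactate dehydrogenase turns pyruvate into lactate, while the pyruvate dehydrogenase kinases (PDKs) hold back the oxidation of pyruvate in the mitochondria. HIF is a pair of an alpha subunit (Hif1a or Epas1) and Arnt. In oxygen the EGLN enzymes hydroxylate the alpha subunit, and the VHL protein then marks it for destruction, so that HIF activity is set mostly on protein that a transcript array does not read. Long-term HSCs are known for a low mitochondrial and a high glycolytic activity, and MYC proteins are known to bind E-box sites at many glycolysis genes.

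Several facts of the arrays bear on the members. Mycn itself, the gene behind the sort, was at 10.48 and 10.39 with N-myc high against 9.44 and 9.65 with N-myc low. The bioB and bioC hybridisation controls were between 10.81 and 11.05 on 3 arrays and at 11.67 on N-myc low, mouse 2, which so stands apart. Both arrays of mouse 1 carried the female-specific RNA Xist (11.38 and 11.10) and also the Y-linked Eif2s3y (8.53 and 8.43). It thus cannot be told whether they hold RNA of 1 animal. Both arrays of mouse 2 had Xist at 3.84 and 3.70, and Eif2s3y at 9.40 and 9.67. Same-numbered arrays of the groups were thus alike in these genes, and mouse 1 differed from mouse 2. For the marker counts that follow, the share over all genes was 15.6% with both N-myc high arrays above both N-myc low arrays. It was 20.8% with both below. Of 8 measured HSC markers, 4 lay above in N-myc high and 1 below, with list means of 9.51 and 9.78 with N-myc high against 9.12 and 9.03 with N-myc low. Markers of granulocytes and monocytes lay below in 5 of 6 cases and above in 1, with list means of 9.47 and 9.22 in N-myc high against 9.66 and 9.73. Among them S100a8 was between 13.22 and 13.42 and S100a9 between 13.44 and 13.69 on every array, bright for genes of mature granulocytes. Of 4 erythroid markers 3 lay below and 1 above, of 6 macrophage markers 1 lay above (C1qb, at 8.24 and 8.48 against 5.76 and 5.64), and of 3 progenitor markers Cd48 and Cd34 lay below and Flt3 above. Of 4 B cell markers 1 lay above, of 6 T and NK cell markers 1 lay below, and of 6 endothelial and stromal markers 1 lay above and 1 below. Kit (10.17 to 10.53) and Slamf1, the gene of CD150 (8.01 to 8.99), were present on every array, and Cd48, which the sort selects against, was at 7.42 and 7.11 against 9.89 and 9.07. The defining T cell gene Cd3e was dim, between 3.20 and 3.29 on every array, and so were Cd3g and Klrd1. Nkg7 of the same list was bright and lay below, at 8.48 and 8.55 against 9.12 and 9.44. Among the B cell markers, Cd79a and Ms4a1 were dim. Cd79b was at 6.70 and 7.77 against 7.43 and 7.46, and Ighm varied widely, at 8.86 and 6.67 against 5.63 and 9.84. The part of these cell-type genes in the values of the members was not tested. In a bulk sample fewer cells of a type and less RNA per cell cannot be told apart.

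The members that differed most were the neuronal-type enolase gene Eno2, the lactate dehydrogenase B gene Ldhb and the hexokinase gene Hk2, all higher in N-myc high HSCs, and the HIF-destroying gene Vhl, lower there. Their log2 differences were 1.66, 0.74, 0.70 and -0.61. On their brightest probe sets Pkm, Ldha and Pgk1, enzymes of the main glycolytic route, differed by 0.01, -0.04 and 0.07. The HIF genes Hif1a and Arnt differed by -0.03 and -0.06. Other probe sets gave 0.39 and 0.23 for Pgk1, 0.50, 0.47 and 0.31 for Hif1a, and -0.28 to 0.58 for Arnt. Some other enzymes of the route had groups apart, such as Pfkl (0.49) above and Aldoa (-0.22) and Tpi1 (-0.20) below. Ldhb gave a positive difference on all 4 of its probe sets, whereas the second probe set of Vhl gave the opposite sign. No member passed the adjusted threshold.

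Members were compared with limma, fitted over all 18193 genes, with a threshold of 0.05 on the Benjamini-Hochberg adjusted p. None of the 34 passed, nor did any other gene (0% of all genes), and the members' adjusted p ran from 0.744 upwards. At an unadjusted p under 0.05 there were 3 members higher (8.82%, against 3.53% of all genes) and 1 lower (2.94%, against 2.78%). For 11 members (32.4%) the groups were apart, N-myc high on top, as for 15.6% of all genes and 19.1% of genes brighter than the median gene. N-myc high lay wholly below for 7 members (20.6%), which is near the background of 20.8% of all genes and 18% of the brighter ones. For comparison of brightness, 28 of the 34 members were brighter than the median gene. In both mice the difference was positive for 13 members (23.2% of all genes) and negative for 8 (29.7% of all genes), and it had opposite signs in 13 (47% of all genes). The median difference of the members was 0.08, with 0.01 in mouse 1 and 0.12 in mouse 2, beside -0.03 over all genes. For 12 members the mean of mouse 2 differed from that of mouse 1 by more than N-myc high did from N-myc low (35.3%, against 47.2% of all genes).

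**Figure D1:**
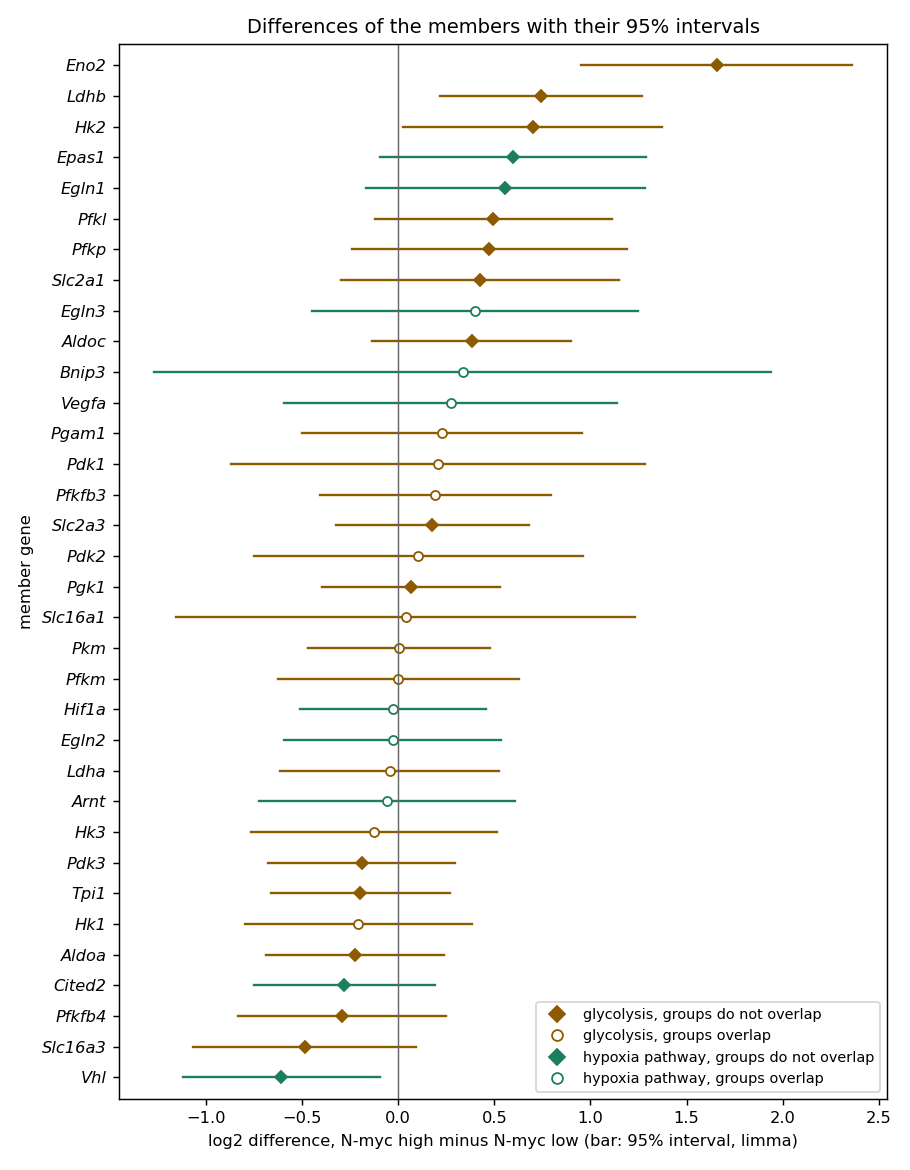
Log2 difference, N-myc high minus N-myc low, of the 34 members with the 95% interval of the limma fit, for 24 glycolysis genes (brown) and 10 hypoxia pathway genes (green). Filled diamonds mark the 18 members whose groups do not overlap, and the intervals of Eno2, Ldhb, Hk2 and Vhl leave out 0.

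The promoters of these 4 genes are shown with that of Ldha, the sister gene of Ldhb, because the HIF site and the E-box bound by MYC proteins share letters. The hypoxia response element has the core ACGTG or GCGTG, and the E-box CACGTG holds ACGTG on both strands. Sequences are the 250 bases before the transcription start from RefSeq (build GRCm38.p6), 5' to 3' on the strand of the gene, with each ACGTG or GCGTG of either strand in capitals. The windows are chr7:46845554-46845803 (plus strand) for Ldha, chr6:142507958-142508207 (minus) for Ldhb, chr6:82774455-82774704 (minus) for Hk2, chr6:124769674-124769923 (minus) for Eno2 and chr6:113623744-113623993 (plus) for Vhl.
Ldha: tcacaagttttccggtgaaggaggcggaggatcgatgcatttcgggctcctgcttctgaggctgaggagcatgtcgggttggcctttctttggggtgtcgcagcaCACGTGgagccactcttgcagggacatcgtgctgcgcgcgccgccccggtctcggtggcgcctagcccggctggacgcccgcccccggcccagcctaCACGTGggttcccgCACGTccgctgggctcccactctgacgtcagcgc
Ldhb: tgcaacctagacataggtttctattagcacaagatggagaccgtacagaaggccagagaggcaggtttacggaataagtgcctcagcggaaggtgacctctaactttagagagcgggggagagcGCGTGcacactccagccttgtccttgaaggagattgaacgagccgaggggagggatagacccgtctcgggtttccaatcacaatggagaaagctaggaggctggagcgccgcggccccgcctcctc
Hk2: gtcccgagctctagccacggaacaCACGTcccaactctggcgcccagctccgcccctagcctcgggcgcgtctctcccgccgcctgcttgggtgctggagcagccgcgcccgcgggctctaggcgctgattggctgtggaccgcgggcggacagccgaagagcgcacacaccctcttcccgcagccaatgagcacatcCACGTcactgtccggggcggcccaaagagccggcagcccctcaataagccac
Eno2: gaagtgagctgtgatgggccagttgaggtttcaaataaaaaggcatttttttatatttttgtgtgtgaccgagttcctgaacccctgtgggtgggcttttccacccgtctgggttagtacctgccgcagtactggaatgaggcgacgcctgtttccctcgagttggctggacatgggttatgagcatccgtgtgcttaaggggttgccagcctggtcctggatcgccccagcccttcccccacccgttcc
Vhl: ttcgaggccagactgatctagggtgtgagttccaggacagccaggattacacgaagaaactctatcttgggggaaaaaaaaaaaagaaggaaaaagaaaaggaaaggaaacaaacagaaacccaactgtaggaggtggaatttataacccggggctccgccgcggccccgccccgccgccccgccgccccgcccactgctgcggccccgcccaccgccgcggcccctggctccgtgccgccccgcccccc
The Ldha window holds CACGTG in 2 places, starting 145 and 48 bases before the start, and 1 more ACGTG on the reverse strand 34 bases before it. The Hk2 window holds ACGTG on the reverse strand at 226 and 52 bases before the start. The Ldhb window holds a single GCGTG, 126 bases before the start, and the windows of Eno2 and Vhl hold neither core. A second RefSeq start of Ldha has a window, not printed, with 1 GCGTG on the reverse strand 59 bases before that start.

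Promoter windows were found for 32 of the 34 members, 46 windows in all, since some genes have several starts. ACGTG or GCGTG on either strand occurred in 36 of the 46 (78.3%), against 38.6% of all 32851 RefSeq windows of that length. CACGTG alone occurred in 8 (17.4%), against 6.02% of all windows. The 8 members with CACGTG were Ldha, Bnip3, Cited2, Hif1a, Pdk2, Pfkfb3, Pfkm and Slc16a1. Their differences between the groups ran from -0.28 for Cited2 to 0.34 for Bnip3. The list was made of glycolysis and hypoxia genes, known HIF targets among them, so these shares test nothing about the list. Some windows of the same gene overlap and share matches, as for Aldoa and Pfkm, and windows of like base composition were not compared. A match is a description of the letters and not evidence of binding.

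Both glucose transporters on the list were measured. Slc2a1 (GLUT1, the basal transporter of blood cells) had log2 intensities of 10.31 and 10.53 with N-myc high against 10.29 and 9.70 with N-myc low. The groups do not overlap, though the arrays of mouse 1 differ by only 0.02, and N-myc low, mouse 2 is the lowest array. The difference was 0.43 (SE 0.272, limma adjusted p = 0.822). Without that array it was 0.13. The other probe sets of Slc2a1 gave 0.39 and 0.55, and on both the groups overlap. Slc2a3 (GLUT3, of higher affinity) was at 10.75 and 10.63 with N-myc high against 10.41 and 10.62 with N-myc low, a difference of 0.18. Its other probe sets ran from -0.36 to 0.54, so its sign depended on the probe set.

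Lactate leaves and enters cells through monocarboxylate transporters. Slc16a3 (MCT4), the exporter of strongly glycolytic cells and a HIF target, was lower in N-myc high on both arrays, at 5.50 and 5.90 against 6.20 and 6.17. The difference was -0.49 (SE 0.218, limma adjusted p = 0.793), on 1 probe set that is dimmer than the median gene. Slc16a1 (MCT1) was at 9.21 and 9.39 in N-myc high, between the 9.88 and 8.65 of the N-myc low arrays. Its difference of 0.04 is the mean of opposite values, -0.67 in mouse 1 and 0.74 in mouse 2.

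Of the 3 hexokinase genes, Hk2, the inducible and mitochondria-bound hexokinase, was at 7.55 and 7.95 with N-myc high against 7.25 and 6.86 with N-myc low. The groups do not overlap, and the difference of 0.70 (95% interval 0.03 to 1.37, SE 0.254) is a level 1.62-fold higher, at a limma adjusted p of 0.779 and an unadjusted p of 0.0448. It was 0.30 in mouse 1 and 1.10 in mouse 2, and rests on 1 probe set. With the mouse as a block the limma unadjusted p was 0.0854 (adjusted p = 0.781), and with a trended and robust prior it was 0.0772, so Hk2 was then not under 0.05. Hk1, the constitutive form, was at 9.90 and 9.72 against 9.83 and 10.21, a difference of -0.21 with overlapping groups. Hk3, the myeloid form, was at 7.59 and 7.81 against 7.59 and 8.05 (-0.13), but its second probe set had both N-myc high arrays above and gave 0.53.

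The ratio of Hk2 to Hk1 within an array is built from the same values of these genes and is no separate support for a change. As a log2 ratio, Hk1 exceeded Hk2 by 2.06 ± 0.41 (SD, n = 2) among N-myc high arrays and by 2.97 ± 0.55 (SD, n = 2) in N-myc low. Ratios of this kind were formed for 18 pairs of isozymes in 10 families. In 8 pairs the groups do not overlap, where single genes were apart upwards in 15.6% and downwards in 20.8% of all genes. The pairs share genes, and no such share was computed over pairs of other genes, so the count is a description only. With 2 against 2 arrays the exact two-sided permutation p cannot go below 0.333, which is 0.75 when adjusted over the 18 pairs, so none could pass. Since probe sets differ in how they bind, only the shift of a ratio between groups can be read, and not its size within a group.

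Phosphofructokinase-1, the committing step, is built from 3 kinds of subunit. The liver-type subunit gene Pfkl was at 9.35 and 9.15 with N-myc high against 8.97 and 8.54 with N-myc low, a difference of 0.49 (SE 0.232, limma adjusted p = 0.793). A second bright probe set gave 0.69 with the groups apart, while the third, dim at 4.56 to 5.71, gave -0.88 with the groups apart the other way, so that the mean over the probe sets is 0.10. The platelet-type gene Pfkp was at 9.31 and 9.14 against 8.45 and 9.05, a difference of 0.47 that came from mouse 1 (0.86, with 0.09 in mouse 2). Its mean over probe sets was 0.07. The muscle-type gene Pfkm was at 8.65 and 9.11 against 8.81 and 8.95, with a difference of -0.00018 (95% interval -0.63 to 0.63).

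Of the aldolases, Aldoa, the main form outside liver and brain, was at 11.52 and 11.58 with N-myc high against 11.80 and 11.74 with N-myc low, lower by a narrow margin with a difference of -0.22 (SE 0.174). Its other 4 probe sets ran from -0.04 to 0.15 with overlapping groups, and the mean over all 5 was -4.9e-05, so the sign rests on the brightest. Aldoc, the brain-type form and a HIF target, was at 7.20 and 6.98 against 6.79 and 6.63. Its difference of 0.38 (SE 0.195, limma adjusted p = 0.806) was alike in the mice, 0.41 and 0.36, and its second, dim probe set gave 0.31 with overlapping groups. The triose phosphate isomerase gene Tpi1 was at 10.28 and 10.27 against 10.41 and 10.53, a difference of -0.20 with the groups apart, and its other probe sets gave -0.0085 and -0.17.

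The phosphofructokinase-2 enzymes make the activator fructose 2,6-bisphosphate and are known HIF targets. Pfkfb3, its strongest kinase, was at 6.71 and 6.995 with N-myc high against 6.82 and 6.49 with N-myc low, and both of its probe sets gave a positive difference, 0.19 and 0.21, with overlapping groups. Pfkfb4 was lower on both N-myc high arrays, at 5.86 and 6.10 against 6.15 and 6.39. Its difference of -0.29 (SE 0.204) was the same in both mice, -0.29 each.

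In lower glycolysis the dimmest member, Eno2, had the largest difference. Eno2, the enolase of neurons, was at 5.59 and 6.01 with N-myc high against 4.36 and 3.92 with N-myc low. The lowest N-myc high value lies well above the highest N-myc low value. The difference of 1.66 (95% interval 0.95 to 2.36, SE 0.266) was 1.23 in mouse 1 and 2.09 in mouse 2, with an unadjusted p of 0.00224 and a limma adjusted p of 0.744. Eno2 has 1 probe set, its mean intensity lies at the 36.2nd percentile of all genes, and no second probe set bears on the value. No detection call was used here, so the N-myc low values are not shown to be above background and no fold is given.

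Pgk1, the first ATP-yielding step, was at 10.47 and 10.38 against 10.37 and 10.36, so the groups are apart by a small gap and the difference is 0.07. Its other probe sets gave 0.39 and 0.23 with overlapping groups. Pgam1, the mutase before enolase, was at 10.37 and 11.01 against 10.46 and 10.46, and its difference of 0.23 came from N-myc high, mouse 2 alone. Pkm, the pyruvate kinase gene, was at 10.89 and 10.80 against 10.89 and 10.79, with a difference of 0.01 whose 95% interval runs from -0.47 to 0.48. Gapdh was read on the control probe sets of the array, where its 3' probe set was at 12.85 and 12.82 against 12.94 and 12.85, and its 3 control probe sets differed by -0.07, 0.02 and -0.03.

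The 2 lactate dehydrogenase genes gave unlike values. Ldhb encodes the H subunit, which favours the use of lactate, and Ldha the M subunit, which favours its formation. Ldhb was at 10.30 and 10.02 with N-myc high against 9.37 and 9.47 with N-myc low, and the groups do not overlap. The difference of 0.74 (95% interval 0.22 to 1.27, SE 0.198) is a 1.67-fold higher level, with 0.93 in mouse 1 and 0.55 in mouse 2, at an unadjusted p of 0.016 and a limma adjusted p of 0.762. Its other 3 probe sets gave 0.68, 0.56 and 0.57, with the groups apart on each. The probe sets share the same 4 RNA samples, so they are repeat readings and not replicates. With any 1 array left out the difference stayed between 0.60 and 0.88.

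Ldha, on 1 probe set, was at 11.42 and 11.04 with N-myc high against 11.31 and 11.24 with N-myc low. The groups overlap, and the difference of -0.04 has a 95% interval of -0.61 to 0.53. The log2 ratio of Ldhb to Ldha was -1.07 ± 0.07 (SD, n = 2) among N-myc high arrays, against -1.86 ± 0.12 (SD, n = 2) in N-myc low. It was thus shifted by 0.79 towards Ldhb, with the groups apart. The exact permutation p of 0.333 is what 4 arrays give to any pair with groups apart, and it is 0.75 when adjusted over the 18 pairs. With Ldha differing by only -0.04, the ratio mostly repeats the difference of Ldhb and is no separate support for it. Several genes of this pathway, Ldha, Ldhb, Aldoa, Tpi1 and Pgk1 among them, have processed pseudogenes, and whether their probe sets also read such copies was not tested.

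**Figure D2:**
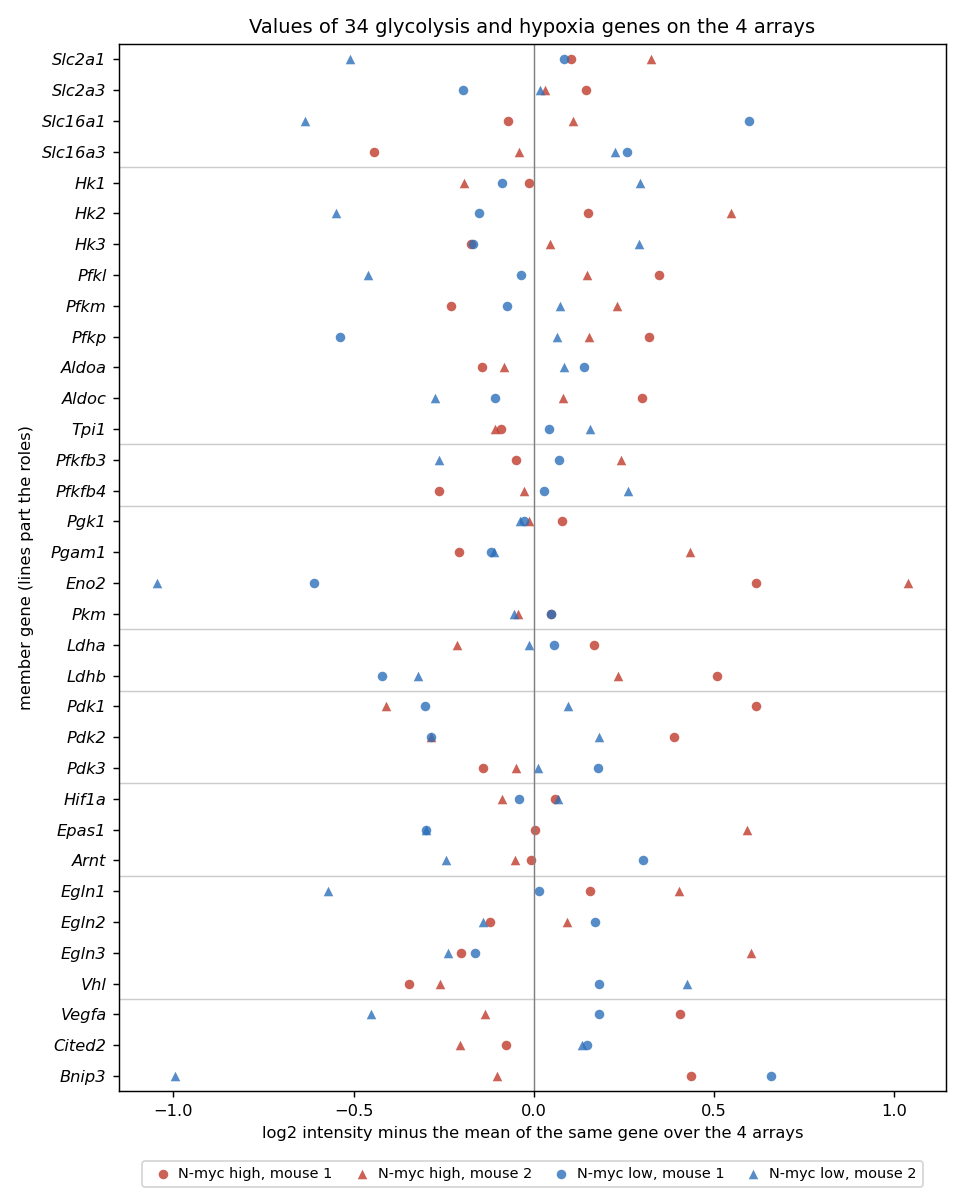
Log2 intensity of each of the 34 members on the 4 arrays, minus the mean of the same gene over the arrays, with N-myc high in red, N-myc low in blue, circles for mouse 1 and triangles for mouse 2. Eno2, Ldhb and Hk2 have both red symbols to the right of both blue ones, Vhl to the left, and N-myc low, mouse 2 is the lowest array for 15 members.

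On their brightest probe sets Pdk1 and Pdk2 had opposite signs in the mice. Pdk1, a classical HIF target, was at 9.53 and 8.50 with N-myc high against 8.61 and 9.01 with N-myc low, a difference of 0.21 that was 0.92 in mouse 1 and -0.51 in mouse 2. Its 4 probe sets all gave positive differences, from 0.07 to 1.76. On 2 of them the groups are apart, one at 9.63 and 8.82 against 8.51 and 8.39, the other dim, at 4.62 and 6.64 against 3.85 and 3.90. The mean over the probe sets was 0.70 (limma unadjusted p = 0.00792, adjusted p = 0.728), so the size for Pdk1 depended on the probe set. Pdk2 was at 7.22 and 6.55 against 6.55 and 7.01, a difference of 0.10, again positive in mouse 1 (0.67) and negative in mouse 2 (-0.47). Pdk3 was lower in N-myc high, at 8.29 and 8.38 against 8.61 and 8.44, with a difference of -0.19 (SE 0.183).

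The sign for the HIF subunits depended on the probe set. Hif1a, the widely expressed alpha subunit, was at 7.73 and 7.58 with N-myc high against 7.63 and 7.74 with N-myc low, a difference of -0.03 (95% interval -0.51 to 0.46). Its other 3 probe sets gave 0.50, 0.47 and 0.31, and on the first of these the groups are apart (7.23 and 7.56 against 6.83 and 6.97). The mean over the 4 was 0.31. Epas1, the alpha subunit HIF-2, was at 4.94 and 5.53 against 4.64 and 4.64, a difference of 0.60 (SE 0.260, limma adjusted p = 0.792). It is dim, at the 35.8th percentile, and its second probe set had the groups apart the other way, with -0.27, and the mean of both was 0.16. The deposited value of Epas1 was the same on both N-myc low arrays to every digit, as happened on 979 of 34945 named probe sets for at least 1 pair of arrays, so its SD of 0 there is no measure of spread. Arnt, the shared partner, was at 9.60 and 9.55 against 9.91 and 9.36, with -0.06, and its other probe sets ran from -0.28 to 0.58, with a mean over all 5 of 0.06.

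The oxygen sensors are the 3 EGLN hydroxylases. Egln1 (PHD2), the main one in most cells and itself induced by HIF, was at 8.19 and 8.43 with N-myc high against 8.05 and 7.46 with N-myc low. The groups are apart, with 0.14 in mouse 1 and 0.97 in mouse 2, and the difference of 0.56 (SE 0.272, limma adjusted p = 0.794) was 0.27 without N-myc low, mouse 2. Its second probe set gave -0.02. Egln2 (PHD1) was at 9.50 and 9.71 against 9.79 and 9.48, with -0.03. Egln3 (PHD3), a strongly HIF-induced gene, was at 5.68 and 6.48 against 5.72 and 5.64, and its difference of 0.40 was -0.0020 without N-myc high, mouse 2. Its dimmer probe set was high on the other N-myc high array (6.45 and 4.51 against 4.85 and 4.71), so the readings of Egln3 disagree on which mouse is high.

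Vhl, the substrate receptor that sends hydroxylated HIF to the proteasome, was at 7.14 and 7.22 with N-myc high against 7.66 and 7.91 with N-myc low. The groups do not overlap, and the difference of -0.61 (95% interval -1.12 to -0.10, SE 0.192) is a 1.52-fold lower level in N-myc high, with -0.53 in mouse 1 and -0.69 in mouse 2. The unadjusted p was 0.0289 and the limma adjusted p 0.779. The second probe set, at 5.32 and 5.22 against 5.07 and 5.00, had the groups apart in the other direction (0.24), and the mean over both was -0.19 (limma unadjusted p = 0.299). With a trended and robust prior the unadjusted p of the brighter probe set was 0.0788.

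Of the HIF targets, Vegfa, the angiogenic growth factor, was at 6.55 and 6.01 with N-myc high against 6.33 and 5.69 with N-myc low. Mouse 1 was above mouse 2 in both groups, the difference of 0.27 was positive in both mice (0.23 and 0.32), and the second probe set gave 0.36 with the groups apart. Cited2, a HIF-induced brake that competes with HIF for the coactivators CBP and p300, was at 10.64 and 10.52 against 10.87 and 10.86, lower on both N-myc high arrays with -0.28 (SE 0.177), while its second probe set gave 0.02. Bnip3, a mitophagy receptor, was at 8.61 and 8.07 against 8.83 and 7.18. Its difference of 0.34 (SE 0.604) was -0.49 when the N-myc low array of mouse 2 was left out and 1.16 when that of mouse 1 was, so a single array decided its sign.

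**Figure D3:**
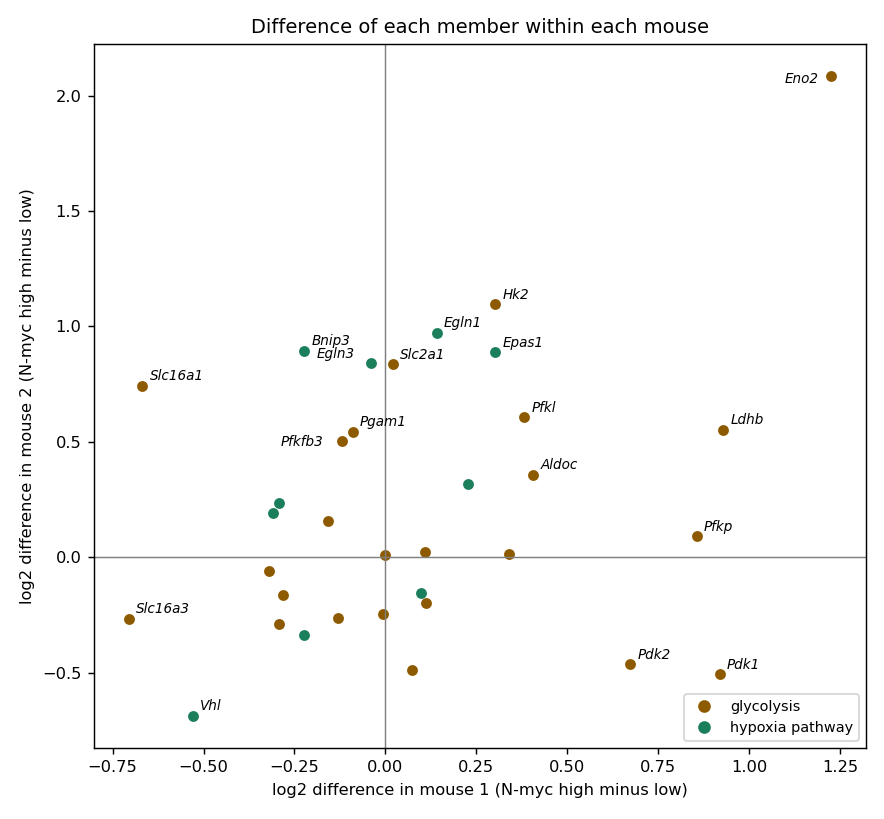
Log2 difference, N-myc high minus N-myc low, within mouse 1 (x axis) and within mouse 2 (y axis) for the 34 members, glycolysis in brown and hypoxia pathway in green. The 13 members in the upper right and the 8 in the lower left have 1 sign in both mice, Eno2 lies farthest out at 1.23 and 2.09, and Pdk1, Pdk2, Slc16a1 and Bnip3 have opposite signs.

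The array that stands apart in its hybridisation controls, N-myc low, mouse 2, was the lowest of the 4 for 15 of the 34 members, where this held for 25.4% of all genes. Among the 15 were Slc2a1, Slc16a1, Hk2, Pfkl, Eno2, Egln1, Vegfa and Bnip3. Without it the differences of Eno2, Ldhb and Hk2 were 1.44, 0.79 and 0.50 and that of Vhl was -0.49, whereas Slc2a1 (0.13), Egln1 (0.27) and Pfkl (0.28) moved by more than 1.5 times. Pfkp went the other way, from 0.47 to 0.77. Leaving out N-myc low, mouse 1 in turn gave Pfkp 0.17, Bnip3 1.16 and Egln1 0.85, and leaving out N-myc high, mouse 2 gave Epas1 0.30, against 0.89 without N-myc high, mouse 1.

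**Figure D4:**
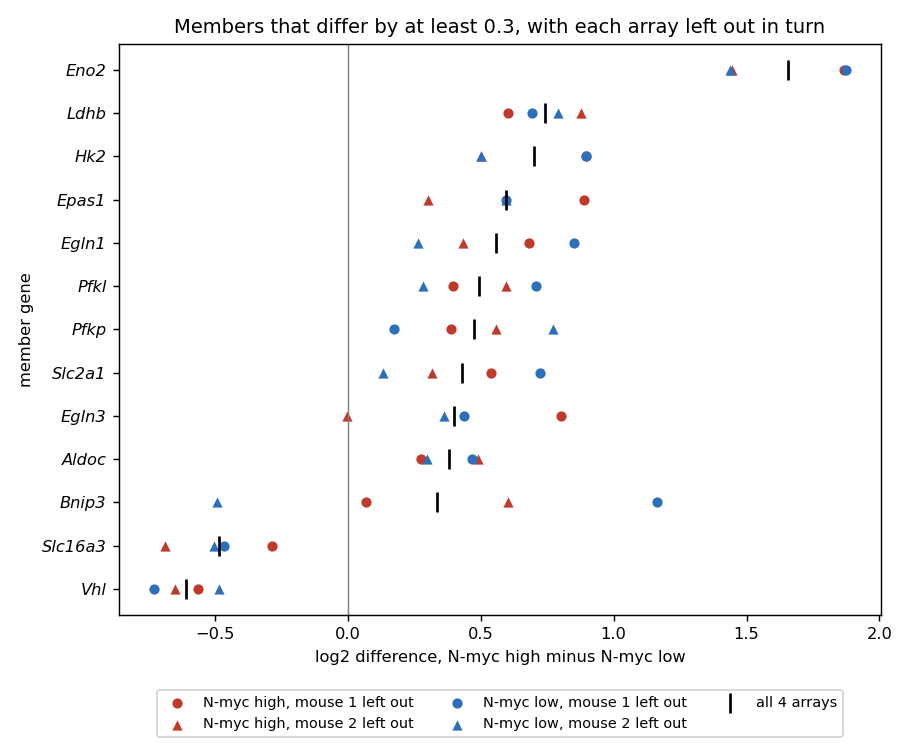
Log2 difference of the 13 members that differ by at least 0.3, with all 4 arrays (black bar) and with each array left out (symbols). Eno2, Ldhb, Hk2, Epas1, Egln1, Pfkl, Pfkp, Slc2a1 and Aldoc stay above 0 and Slc16a3 and Vhl below 0 in every case, while Egln3 touches 0 and Bnip3 crosses it.

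Among the 22 members with several probe sets, 10 had 1 sign on all of them and 12 had both signs. Those with 1 sign were Slc2a1, Hk1, Aldoc, Tpi1, Pfkfb3, Pgk1, Ldhb, Pdk1, Egln3 and Vegfa. The representative probe set and the mean over probe sets differed in sign for Slc16a1, Hk3, Hif1a and Arnt. The remaining 12 members, Eno2 and Hk2 among them, have 1 probe set and no such check.

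**Figure D5:**
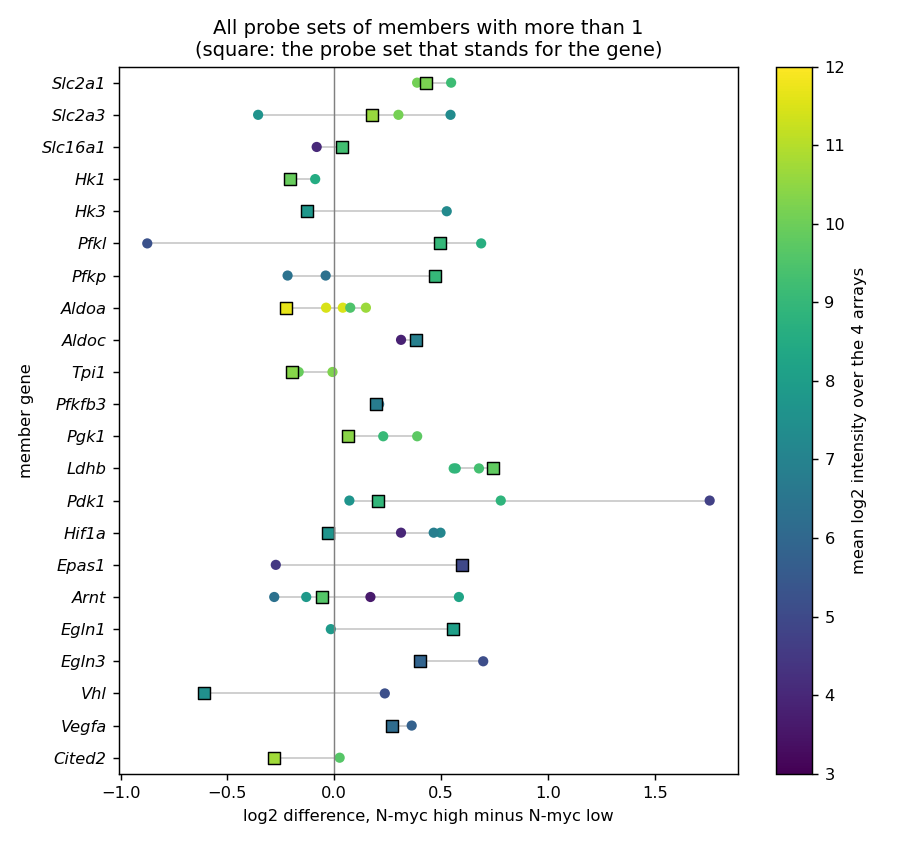
Log2 difference of every probe set of the 22 members with more than 1, coloured by mean log2 intensity, with a square for the probe set that stands for the gene. The 4 probe sets of Ldhb lie together between 0.56 and 0.74, those of Vhl lie on both sides of 0 (-0.61 and 0.24), and those of Pfkl run from -0.88 to 0.69.

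Outside the members, 65 of 73 further genes of the pathway were measured. None passed the adjusted threshold. At an unadjusted p under 0.05, 2 were higher (3.08%, against 3.53% of all genes) and 3 lower (4.62%, against 2.78%). The groups were apart upwards for 6 (9.23%, against 15.6%) and downwards for 12 (18.5%, against 20.8%), and the median difference was -0.03, beside -0.03 over all genes. In 23 other glycolysis and pyruvate genes 3 lay above and 3 below. Bpgm, which makes 2,3-bisphosphoglycerate from a glycolytic intermediate, was at 8.80 and 9.42 against 8.06 and 8.38 (0.89, SE 0.290), but the mean over its 3 probe sets had the opposite sign, -0.32. Pdhx, a structural part of the pyruvate dehydrogenase complex, was at 5.61 and 5.77 against 6.15 and 6.25 (-0.51, SE 0.183), and the pyruvate carrier gene Slc16a7 was at 5.75 and 6.04 against 5.37 and 5.51 (0.45).

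Among 31 other hypoxia targets 3 lay above in N-myc high and 7 below, with a median of 0.06. Ndrg1, a stress gene strongly induced by hypoxia, was lower at 9.86 and 10.18 against 10.68 and 10.83 (-0.74, SE 0.209). Vldlr, a lipoprotein receptor, was at 8.48 and 7.63 against 9.01 and 9.58 (-1.24, SE 0.382), with a mean over its 6 probe sets of -0.50. The oxidative protein-folding gene Ero1a was at 7.42 and 7.04 against 7.76 and 7.62 (-0.45, and -0.20 over its 3 probe sets). On the higher side, the sterol regulator Insig2 was at 6.60 and 6.97 against 5.84 and 6.32 (0.71, SE 0.265, and 0.31 over its 3 probe sets), and the collagen hydroxylase gene Plod1 was at 5.93 and 6.96 against 5.29 and 5.63 (0.98, SE 0.4, and 0.50 over its 2 probe sets). In 11 other components of the HIF machinery 0 lay above and 2 below. The limma adjusted p of these genes was 0.769 or more.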

How the data were processed

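Per the submitters' processing notes, the authors ran RMA and used affy and limma (no versions named), and they deposited log2 intensities per probe set. RMA corrects background, makes the arrays alike by quantiles and sums up probes, which removes any shift shared by all genes. The sources used here give neither genome build nor chip definition. Of 45101 probe sets, 34945 name 1 gene (annotation of the platform), which gave 18193 genes; no filter was put on dim genes. Differences, standard errors (SE), 95% intervals and p values come from limma 3.58.1 in R 4.3.3 (lmFit and eBayes over all genes). The fit was also run on simulated data with independent normal noise and no mouse or array effect. Such effects were thus not tested. Each group has 2 arrays, which limits the precision. The p values weigh each difference against the spread between arrays of a group, moderated by limma towards the spread of all genes. Whether this is a spread between single animals is not known. The labels number the mice, 1 and 2 in each group. Same-numbered arrays were alike in Xist and Eif2s3y, while their deviations correlated at r = 0.0492 across genes. The fit has no mouse term, as set in the design; the mouse as a replicate block is an alternative, beside the mean of probe sets, every probe set tested, a filter on dim genes, another prior, median centring and each array left out.

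Every member is named with its difference. All 4 array values are given for members whose groups do not overlap or that differ by at least 0.3, and for a fixed list of central genes, with Gapdh and up to 4 genes in each direction from the further pathway genes (smallest unadjusted p, groups apart). The other members' array values were added. Members and lists were chosen with earlier results of these data known. Motifs were searched on both strands in the 250 bases before each RefSeq start, leaving out the transcribed bases of the windows.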

Additional observations from a re-analysis of the deposited data

How the results depend on the processing

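Of 334 values (34 members under 10 alternatives, where each could be fitted), 307 kept their direction and 27 reversed, in 14 members; the other 20 members had 1 direction throughout. No member passed the adjusted threshold under any of them, with a lowest adjusted p of 0.542. Under the replicate block (mouse number) the differences are the same, 2 members were higher and 1 lower at an unadjusted p under 0.05, Eno2 had an adjusted p of 0.781, and no adjusted call changed; Hk2 was the member no longer under 0.05. With the mean of all probe sets, Slc16a1 gave -0.022, Hk3 0.20, Hif1a 0.31 and Arnt 0.056, and at an unadjusted p under 0.05 there were 4 members higher, Pdk1 (0.70) being added, and 0 lower. With the trended and robust prior 2 were higher and 0 lower. With arrays centred on their median, Pfkm gave 0.029, Hif1a 0.00062 and Egln2 0.000199. Without the dimmer genes 1 member was higher at an unadjusted p under 0.05, because Eno2 falls under that filter and Hk2 misses. No share over all genes was computed under these alternatives, so their counts have no background beside them and are a description only.

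With each array left out in turn, the reversing members ranged from -0.58 to 0.65 (Slc16a1), -0.36 to 0.10 (Hk3), -0.23 to 0.23 (Pfkm), -0.094 to 0.55 (Pgam1), -0.046 to 0.056 (Pkm), -0.23 to 0.15 (Ldha), -0.31 to 0.72 (Pdk1), -0.23 to 0.44 (Pdk2), -0.10 to 0.045 (Hif1a), -0.33 to 0.21 (Arnt), -0.18 to 0.13 (Egln2), -0.0020 to 0.80 (Egln3), -0.044 to 0.59 (Vegfa) and -0.49 to 1.16 (Bnip3). The members at an unadjusted p under 0.05 were 2 to 5 higher and 0 to 1 lower, and those with groups apart 11 to 19 above and 10 to 11 below (most above and most higher without N-myc low, mouse 1); fewer arrays must be apart there. No share over all genes was computed with an array left out, so these counts have no background beside them. They are a description only, and whether members are in excess in either direction cannot be told from them. The median difference of the members ran from 0.04 to 0.10.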
